A study of Mus musculus with 8 samples.

Results

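The blood vascular endothelial cells (BEC) of the normal mouse colon were described from the 4 arrays whose sample titles name BEC, out of 8 arrays in the series. The cells came from 4 healthy C57BL/6J mice aged 8 weeks, 3 female and 1 male, and no transgene, Cre or treatment is named for them. Each mouse gave 1 BEC array and 1 array of lymphatic endothelial cells (LEC), numbered by mouse, so BEC1 to BEC4 are 4 separate animals and BEC4 is the male one. The LEC arrays, from the same strain, age and tissue, serve here only as the reference level for each probe set. The opened colons were brought into single-cell suspension with collagenase and DNase, and cells were sorted into lysis buffer after staining for CD31, podoplanin and CD45.2; the sources used here do not give the gates. The RNA was amplified linearly from poly(A) and random primers before hybridisation, and the series design states that the animal-matched pairs were chosen for the quality of their extracted and amplified material.

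Blood vascular endothelium lines arteries, capillaries and veins, and each segment carries its own genes. Arterial cells use the Notch and SOX17 programme and lay down elastic fibre proteins, capillary cells take up and move fatty acids and make the fenestral diaphragm protein PLVAP, and venous cells carry von Willebrand factor, P-selectin and the addressins through which leukocytes leave the blood. In the intestine the capillaries of the mucosa are fenestrated, and MAdCAM-1 on venules is the gut addressin that lymphocytes bind.

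Values are log2 signals as deposited, each for 1 probe set per gene, and 18193 genes had a named probe set. The percentile of a gene is its rank among these 18193 genes on the same array; it describes the brightness of a probe set, since probe sets differ in their response, and does not order genes by transcript amount. A gene was above background on an array when its value exceeded the level of that array's Bacillus subtilis control probe sets, which was 4.52 on BEC1 and 3.43 on each of the other 3 BEC arrays. On single BEC arrays 10460 to 12478 genes were above background, and 8181 genes (45%) were so on all 4. Spearman correlations between BEC arrays over all genes ran from 0.750 to 0.832, and the 3 pairs that include BEC1 (0.750 to 0.797) were below the 3 that do not (0.817 to 0.832). BEC3 and BEC4 stood apart from BEC1 and BEC2 in genes of other colon cells. The summed linear signal of 16 epithelial genes was 1098, 820, 23056 and 6431 on BEC1 to BEC4 and 731, 2162, 10678 and 878 on LEC1 to LEC4. That of 13 enteroendocrine genes was 364, 2251, 11204 and 22309 on BEC1 to BEC4 and 612, 838, 1160 and 3033 on LEC1 to LEC4. In both populations the epithelial sum was thus highest for mouse 3 and the enteroendocrine sum for mouse 4. Counts of calls are therefore also given from BEC1 and BEC2 alone against the 4 LEC arrays, an alternative chosen after seeing the data.

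The 6 genes taken as markers of the population were bright on all 4 BEC arrays, with mean percentiles of 94.4 to 99. Von Willebrand factor (Vwf), the platelet-binding glycoprotein of endothelial storage granules, had log2 signals of 10.89, 10.86, 10.75 and 11.15 on BEC1 to BEC4, whereas the LEC values ran from 0.85 to 5.24. No BEC value of Vwf came near an LEC value, and the BEC arrays differed little among themselves (10.91 ± 0.17, mean ± SD, n = 4). Its signal was at least 85.7-fold higher in BEC (limma, adjusted p = 1.26e-04). "At least" is written wherever an array of the dimmer group lay below background, because values of that group were raised to the background level of their array before the means were compared. In bulk sorted cells, a higher level can reflect more expressing cells or more RNA per cell, and these cannot be told apart. Flt1, a receptor of VEGF-A, was at 11.98, 11.55, 11.26 and 11.36 (at least 87.3-fold higher, adjusted p = 4.10e-05), and Nrp1, a co-receptor for VEGF and class 3 semaphorins, at 11.87, 11.74, 11.70 and 11.98 (at least 82.7-fold, adjusted p = 8.56e-05). Both were even across the 4 mice, with Flt1 highest on BEC1. The chemokine receptor gene Cxcr4 was at 10.59, 11.49, 11.18 and 10.39 (at least 93.0-fold, adjusted p = 5.04e-04) and the apelin receptor gene Aplnr at 11.51, 10.91, 10.84 and 10.73 (at least 83.3-fold, adjusted p = 1.64e-04). Sox17, an arterial transcription factor, divided the mice. Its values were 10.85, 10.89, 9.11 and 9.54, with BEC1 and BEC2 above BEC3 and BEC4 and 3.42-fold between the highest and the lowest, and all 4 were above every LEC value (at least 55.8-fold, adjusted p = 1.32e-04). All 6 markers were called in each of the 18 alternative fits. They were named with earlier results of these data known, so their differences from LEC describe the population and are no independent check of its label.

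**Figure D1:**
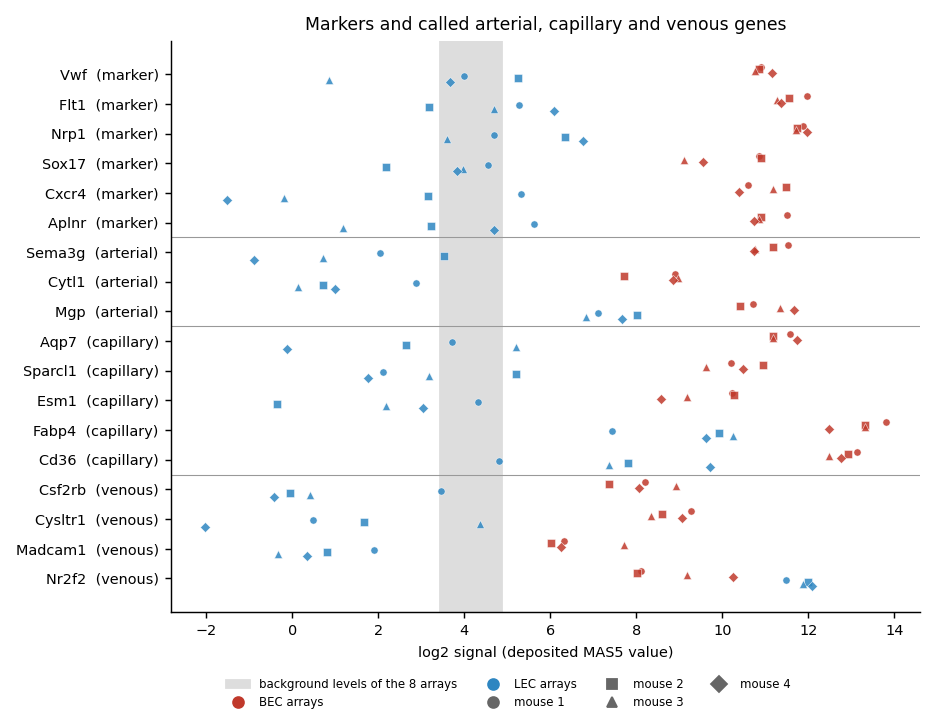
Log2 signal of the 6 markers and of the called arterial, capillary and venous genes named by rule, 1 point per array (red BEC, blue LEC, symbol by mouse), with the range of the 8 arrays' background levels in grey. Red points lie to the right of every blue point in each row but Nr2f2, where they lie to the left; Sox17 (9.11 to 10.89) and Nr2f2 (8.03 to 10.26) spread most among the markers and venous genes shown.

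The sort antigens and genes shared by all endothelium were read next. Pecam1, which encodes CD31, was at 12.69, 12.19, 11.69 and 11.85, and Pdpn, which encodes podoplanin, was at 2.78, 3.56, 3.07 and 4.12, above background on 2 of the 4 BEC arrays. Ptprc, which encodes CD45, was at 5.18, 0.54, 7.58 and -1.27, so BEC1 and BEC3 were above background and BEC2 and BEC4 below it. Of 24 pan-endothelial genes, 23 were above background on all 4 BEC arrays and 20 had a mean percentile of 90 or more, as 1541 of all 18193 genes did. The median percentile of the list was 96.7 in BEC, beside 47.5 for all genes. VE-cadherin (Cdh5), the adhesion molecule of endothelial junctions, was the brightest of them at 12.73, 12.42, 12.24 and 12.55, followed by Pecam1, endomucin (Emcn, 12.04 ± 0.42), the VEGF-A receptor gene Kdr (11.96 ± 0.48) and the phosphatase gene Ptprb (11.93 ± 0.27). Tal1 was the 1 member below background on an array (BEC1). Over all genes, 306 of 13259 tested (2.31%) were called higher and 234 (1.76%) lower in BEC (limma, adjusted p under 0.05), 4.07% in either direction. Of these calls 56.7% were higher in BEC, a share that was 67.5% when arrays were set to equal medians and 69.5% when set to equal hybridisation controls, which moved the median difference of all genes to 0.20 and 0.31. Without BEC2 the higher count was 180 and without BEC4 it was 200, the lower count was 123 with equal hybridisation controls, and BEC1 and BEC2 alone gave 102 higher and 143 lower. Of the 24 pan-endothelial genes 6 were called, each higher, and the median log2 difference was 0.87, against -0.08 for all genes. The 6 were Cd34 (12.5-fold, adjusted p = 1.44e-04), the adhesion molecule Esam (11.7-fold, 2.37e-04), Clec14a (at least 22.3-fold, 0.00159), Ptprb (4.30-fold, 6.92e-04), Cdh5 (2.27-fold, 0.0252) and Mcam (at least 9.25-fold, 0.0302). Cdh5 and Mcam each lost the call when single arrays were left out, Cdh5 without BEC1, BEC2, BEC4 or LEC3 (adjusted p up to 0.0799) and Mcam without BEC1, BEC2, BEC3, LEC2 or LEC3 (up to 0.114).

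The 12 brightest probe sets by mean percentile were those of Malat1, Hnrnpab, AY036118, Col4a1, Igfbp7, B2m, Actb, Tmem109, Rps29, Ywhae, Sparc and Hspa8. Hnrnpab was dimmer by its other probe sets, with mean BEC values of 5.46 to 10.00. Col4a1, the type IV collagen chain of basement membranes, was at 13.77, 13.36, 13.35 and 13.31, Igfbp7, a secreted protein of vessel walls, at 13.82, 13.72, 13.26 and 13.09, and the collagen-binding protein gene Sparc at 13.51, 12.99, 12.88 and 12.97. All 3 were highest on BEC1, except that Igfbp7 was almost as high on BEC2. Igfbp7 and Sparc were also higher than in LEC (5.04-fold, adjusted p = 3.14e-04, and 13.4-fold, adjusted p = 0.00168; 8.41-fold for Sparc without LEC1), whereas none of the other 10 was called. Adjusted p-values of those 10 ran from 0.276 for Col4a1 to 0.783 for Ywhae, and Col4a1 was called with quantile normalization (0.0279) and with the mean of its probe sets (0.0390).

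Arterial genes were present throughout. All 27 members of the list were above background on the 4 BEC arrays, where 45% of all genes were, and the median percentile was 93.1. The 6 brightest were Nrp1, Clu, Hey1, Ltbp4, Sema3g and Mgp, with mean log2 signals of 11.03 (Mgp) to 11.82 (Nrp1). Of the 27, 14 were called, each higher in BEC, beside 2.31% of all genes tested, with a median difference of 3.47. All lists were written with earlier results of these data known. Markers of the population are among them: Nrp1, Sox17 and Cxcr4 here, Flt1 in the capillary list, and Vwf and Aplnr in the venous list. Shares called in a list, beside that of all genes, thus describe the list and are no independent check. Sema3g, a secreted class 3 semaphorin, was at 11.53, 11.18, 10.75 and 10.73 and below background on all 4 LEC arrays (-0.88 to 3.53), at least 111-fold higher in BEC (limma, adjusted p = 3.59e-05). Genes as dim in LEC as Sema3g passed the brightness filter of the test only through the BEC arrays. They could thus only come out higher, and this holds below for Cytl1, Csf2rb and Madcam1 too. The call of Sema3g held in each of the 18 alternative fits, among them that without the filter. Matrix Gla protein (Mgp), an inhibitor of vessel calcification, was at 10.71, 10.41, 11.34 and 11.66, highest on BEC4 and lowest on BEC2, and 12.3-fold higher (3.51e-04). Cytl1, a small secreted cytokine-like protein, was even on BEC1, BEC3 and BEC4 and lower on BEC2, with values of 8.90, 7.72, 8.98 and 8.85 (at least 20.4-fold higher, 1.27e-04). The other members called were Nrp1, Cxcr4, Sox17, clusterin (Clu), the Notch receptor Notch4, the Notch ligand Jag2, the Notch target Hey2, the connexin 40 gene Gja5, endothelin 1 (Edn1), the elastic fibre protein Fbln2 and the transcription factor Mecom. Among them Clu was at least 42.1-fold higher (6.02e-04), Notch4 at least 30.3-fold (0.00269), Edn1 at least 11.2-fold (0.00221), Jag2 11.1-fold (0.00198) and Mecom at least 17.1-fold (0.00628, and at least 27.6-fold without LEC3). Of the 14, 3 lost the call with single arrays left out.

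Those 3 were Gja5 (at least 11.5-fold, adjusted p = 0.0135, up to 0.0562 without BEC1 or BEC2), Hey2 (at least 7.85-fold, 0.0148, up to 0.0547 without BEC1, BEC2 or BEC4) and Fbln2 (at least 9.31-fold, 0.0472, up to 0.123 without LEC4 or any 1 BEC array, and 0.0657 with the mouse as a block). Gja5 was also the arterial gene that varied most between mice, at 9.16, 8.60, 8.19 and 6.68, 5.55-fold between BEC1 and BEC4. The 13 members not called included bright ones. Here and below, a difference is given ± its standard error from limma, whereas a level is given as mean ± SD. Hey1, a Notch target, was at 11.30 ± 0.36 in BEC and 10.62 ± 0.14 in LEC (difference 0.68 ± 0.29, adjusted p = 0.290), the arterial ephrin gene Efnb2 at 10.36 ± 0.61 and 10.25 ± 0.49 (difference 0.11 ± 0.40, 0.941), and Ltbp4, a matrix protein of elastic fibres, at 11.34 ± 0.59 and 12.31 ± 0.13 (difference -0.97 ± 0.29, 0.0969). Without BEC1, the array where it was brightest, Ltbp4 was called lower in BEC (adjusted p = 0.0201). With BEC1 and BEC2 alone 8 arterial genes were called higher, without Gja5, Hey2, Fbln2, Jag2 (0.0645), Edn1 (0.0565) and Mecom (0.116).

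Capillary genes held the brightest transport and fatty acid genes of the population. Of 23 measured members, 21 were above background on all 4 BEC arrays, and the median percentile was 97.1; Mfsd2a and Tmem100 were the exceptions. Fabp4, a fatty acid carrier of the cytoplasm, was at 13.81, 13.33, 13.31 and 12.49, the fatty acid receptor gene Cd36 at 13.13, 12.93, 12.49 and 12.75, and Car4, the membrane-bound carbonic anhydrase of capillaries, at 13.34, 12.94, 12.68 and 11.79. All 3 were highest on BEC1, and Fabp4 and Car4 were lowest on BEC4, by 2.51-fold and 2.91-fold. Each was higher than in LEC, Fabp4 15.2-fold (limma, adjusted p = 5.74e-04; 9.90-fold without LEC1), Cd36 at least 41.7-fold (7.79e-04; at least 23.1-fold without LEC1 and 70.5-fold without LEC4) and Car4 at least 54.1-fold (0.0120; at least 105-fold without LEC1 and 29.6-fold without LEC2). Plvap, the protein of fenestral and caveolar diaphragms, was at 12.72, 12.01, 12.04 and 11.99, with BEC1 above 3 nearly equal arrays (at least 39.1-fold, 0.00442; at least 24.5-fold without LEC1). The second fatty acid carrier Fabp5 was at 12.74, 12.43, 11.99 and 12.47 and was not called (difference 3.30 ± 0.88, 0.0559), but it was with equal medians (0.0474), with quantile normalization (0.0488) and without LEC3 (1.48e-04).

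In all, 13 of 22 tested capillary genes were called, each higher in BEC, beside 2.31% of all genes tested, with a median difference of 3.61. Besides Flt1 and those above they were the glycerol channel gene Aqp7, the matrix protein Sparcl1, endocan (Esm1), the transcription factor Tcf15, Rgcc, Ramp3, Timp4 and Cd200. Aqp7 was even at 11.58, 11.18, 11.17 and 11.74 and at least 113-fold higher (adjusted p = 1.25e-04), and Sparcl1 was at 10.20, 10.94, 9.62 and 10.47 (at least 56.7-fold, 1.25e-04). Esm1, which also marks sprouting tip cells, was at 10.23, 10.28, 9.19 and 8.58, higher on BEC1 and BEC2 than on BEC3 and BEC4, and below background on all 4 LEC arrays (at least 39.6-fold, 4.42e-04). Of the 13 calls, 12 held in all 8 fits that left out 1 array; Timp4, a metalloproteinase inhibitor, did not (8.95-fold, 0.0117, and 0.0547 without BEC2). Lipoprotein lipase (Lpl), which frees fatty acids at the capillary wall, was at 8.38, 10.29, 11.45 and 11.29, 8.41-fold apart between BEC1 and BEC3, and its anchor Gpihbp1 was at 10.34, 11.27, 10.96 and 10.80. Neither was called (adjusted p = 0.309 and 0.118). Kdr, not called with all arrays (difference 1.15 ± 0.33, 0.0735), was called without BEC4 (0.0432), and Sgk1, a salt-regulated kinase, was called with the mouse as a block (0.0428, against 0.0762 without it). With BEC1 and BEC2 alone the number of capillary calls was 9, without Plvap (0.0641), Car4 (0.0931), Timp4 (0.182) and Ramp3 (0.114).

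**Figure D2:**
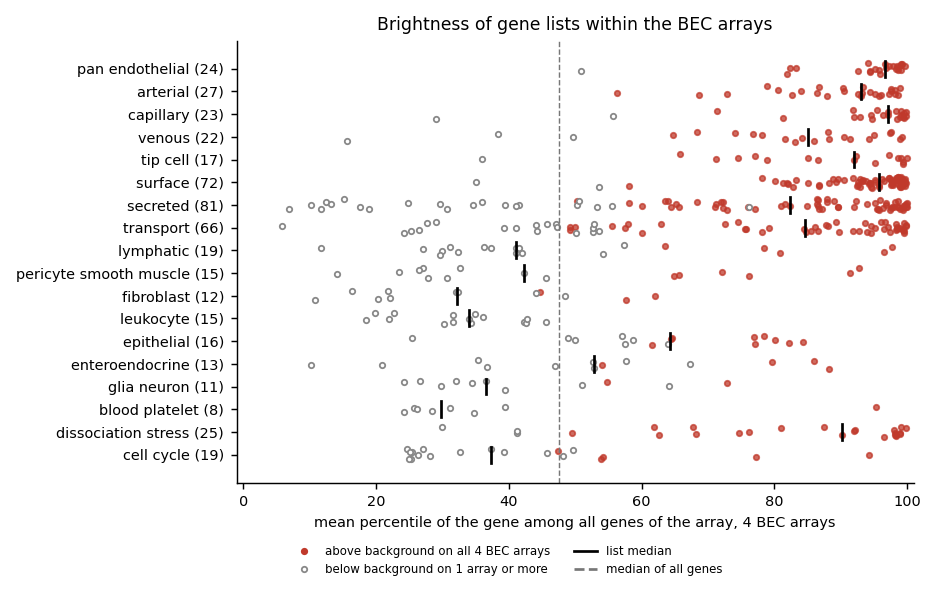
Mean percentile over the 4 BEC arrays of each member of each gene list (red, above background on all 4; open, below on 1 or more), with the list median as a bar, the number measured in brackets and the median of all genes (47.5) as a dashed line. The arterial, capillary and venous medians lie at 93.1, 97.1 and 85.1. Those of the epithelial and enteroendocrine lists lie at 64.2 and 52.8, those of the leukocyte and fibroblast lists at 34.1 and 32.2.

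Venous genes went both ways against LEC. Of 22 measured members 19 were above background on all 4 BEC arrays, the median percentile was 85.1, and the exceptions were E-selectin (Sele), above background on none, and Adgrg6 and Flrt2, on 3 and 2 arrays. Thrombomodulin (Thbd), the endothelial cofactor of protein C activation, was the brightest at 11.98, 11.99, 11.83 and 12.33, highest on BEC4, and was not called (difference 1.12 ± 0.33, adjusted p = 0.0854), except without LEC2 (0.0473). Of 21 tested, 8 were called higher and 3 lower (limma), beside 2.31% and 1.76% of all genes tested, with a median difference of 1.50. Beside Vwf and Aplnr the higher ones were the cytokine receptor subunit gene Csf2rb, the leukotriene receptor gene Cysltr1, Madcam1, P-selectin (Selp), the atypical chemokine receptor gene Ackr1 and the LIF receptor gene Lifr. Csf2rb was at 8.20, 7.37, 8.93 and 8.07 and below background on all 4 LEC arrays (at least 14.7-fold, adjusted p = 4.89e-04). Cysltr1 was at 9.27, 8.61, 8.34 and 9.05 (at least 21.5-fold, 0.00117); its other probe set was dimmer, with a mean of 4.73 in BEC and a difference of 1.51.

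Genes through which leukocytes leave the blood differed among themselves. Madcam1 was at 6.31, 6.02, 7.71 and 6.26, with BEC3 above the other 3, and -0.34 to 1.91 in LEC (at least 4.97-fold, adjusted p = 0.00158). Selp was at 6.95, 7.36, 8.12 and 7.19 (at least 8.84-fold, 0.00677) and Ackr1 at 6.40, 7.00, 7.86 and 7.27 (at least 5.85-fold, 0.0439), and both were highest on BEC3. Ackr1 lost the call without any 1 array but LEC1 (up to 0.136) and with the mouse as a block (0.0694). Lifr (4.02-fold, 0.0249) lost it without BEC1, BEC2, BEC4, LEC2 or LEC3 (up to 0.0880). The integrin ligand genes Icam1 and Vcam1 were above background on all 4 BEC arrays, at 8.94, 10.19, 9.43 and 8.42 and at 7.48, 5.29, 6.28 and 5.75. Both overlapped LEC and neither was called (difference -0.57 ± 0.47, 0.655, for Icam1 and 1.39 ± 0.83, 0.494, for Vcam1). The probe sets of Vcam1 disagreed. Another one was above background on all 4 BEC arrays, with means of 6.65 in BEC and 2.49 in LEC (difference 4.17), and a dimmer one had a difference of 0.60.

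Lower in BEC were Nr2f2, Ackr3 and Flrt2. Nr2f2, the transcription factor COUP-TFII of venous and lymphatic identity, was at 8.10, 8.03, 9.19 and 10.26, 4.70-fold apart between BEC2 and BEC4, and every BEC value was under the LEC range of 11.48 to 12.09 (7.80-fold higher in LEC, adjusted p = 0.00205, and 0.0524 with equal hybridisation controls). Its probe sets disagreed on brightness, and the other 5 had mean BEC values of 3.78 to 5.93. The scavenging receptor gene Ackr3 was bright in both, at 11.78, 11.46, 11.48 and 12.31 in BEC and 2.44-fold higher in LEC (0.00586), a call lost with equal medians (0.0981), equal hybridisation controls (0.279) or no intensity trend (0.253). Flrt2 was at least 12-fold higher in LEC (0.0116, and 0.0661 with equal hybridisation controls). Ephb4, the venous ephrin receptor gene, was at 10.08 ± 0.30 in BEC and 10.14 ± 0.56 in LEC (difference -0.06 ± 0.38, adjusted p = 0.967). From BEC1 and BEC2 alone 4 venous genes were called higher, without Madcam1 (0.0910), Selp (0.116), Ackr1 (0.352) and Lifr (0.119).

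Genes of sprouting tip cells were read as a neighbouring list. Of 17 members 16 were above background on all 4 BEC arrays and Pgf on 2. In limma 5 were called, each higher, beside 2.31% of all genes tested, with a median difference of 0.80. They were Cxcr4, Esm1, the collagen gene Col4a2 (12.54, 12.22, 12.43 and 11.98; 3.45-fold, limma, adjusted p = 0.00158), the apelin gene Apln (8.15, 7.75, 7.35 and 6.56; at least 8.94-fold, 0.0273) and Trp53i11 (7.80, 9.35, 7.70 and 8.77; 6.90-fold, 0.0271). Apln was highest on BEC1 and lowest on BEC4, 3.01-fold apart. Apln lost the call without LEC4 or any 1 BEC array (up to 0.0863), and Trp53i11 without BEC2, BEC4 or LEC4 (up to 0.118) and with the mouse as a block (0.0509). The angiopoietin gene Angpt2 was at 6.84 ± 0.76 in BEC and 6.75 ± 0.58 in LEC (difference 0.09 ± 0.64, adjusted p = 0.972).

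The mixture of segment genes was compared between the 4 mice. Each member was compared with its own mean over the 4 BEC arrays, so that no probe set was set against another. The median deviation of the 27 arterial genes was 0.37 on BEC1 and between -0.08 and 0.07 on the other 3, and 13 of the 27 were highest on BEC1. For 22 capillary genes it was 0.23, 0.10, -0.16 and 0.07, for 16 tip cell genes 0.44, 0.16, -0.33 and -0.13, and for 20 venous genes -0.14, -0.11, 0.13 and 0.24. As deposited, arterial, capillary and tip cell genes thus stood highest on BEC1 and venous genes on BEC4, while the median over 10582 genes stood at 0.06, 0.06, -0.00 and 0.05. With arrays set to equal medians the arterial and capillary lists stood highest on BEC4 instead (0.27 and 0.26, against 0.06 and -0.07 on BEC1), tip cell genes remained highest on BEC1 (0.13) and venous genes on BEC4 (0.44), and all genes moved to -0.25, -0.06, 0.24 and 0.24. Relative to all genes, arterial genes stood 0.31 higher on BEC1 and venous genes 0.19 higher on BEC4. No test was made of these offsets, and sex, which separates BEC4, cannot be told apart from the mouse. On the same arrays the epithelial list stood at -1.12, -1.55, 2.60 and 0.85 and the enteroendocrine list at -1.96, -0.30, 0.42 and 2.30, and their part in the offsets of the vessel lists was not tested.

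**Figure D3:**
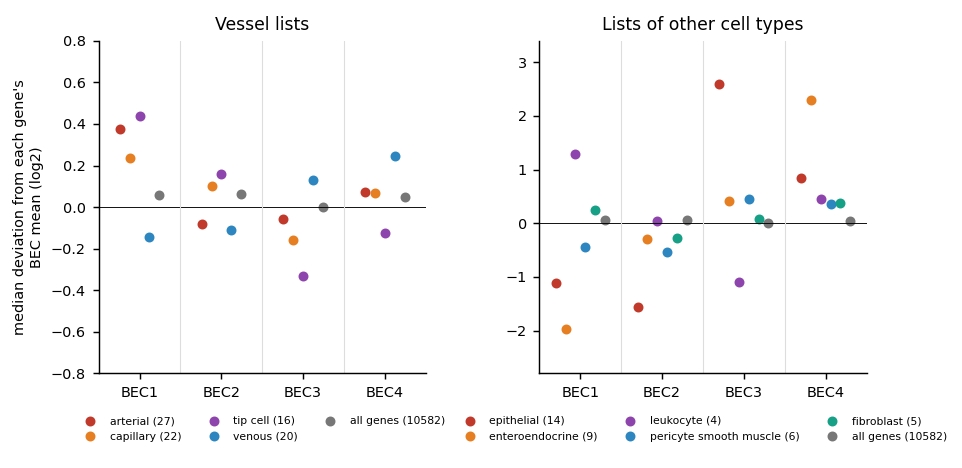
Median over list members of the log2 value on an array minus the gene's own mean over the 4 BEC arrays, for vessel lists (left) and lists of other cell types (right), with the number of genes in brackets and all genes in grey; the axes differ in scale. On the deposited scale vessel lists stay between -0.33 and 0.44, whereas the epithelial list reaches 2.60 on BEC3 and the enteroendocrine list 2.30 on BEC4.

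Promoter sequence is shown for 3 called genes of the arterial and capillary lists, because these genes moved together against LEC and factors of the ETS family, among them ERG and FLI1, are known to act at endothelial promoters. The windows are the 250 bases before the RefSeq start on GRCm38.p6, 5′ to 3′ on the strand of the gene, and capitals mark AGGAAG or CGGAAG, the ETS core searched on both strands (CTTCCT or CTTCCG on the other strand).
Sema3g, chr14:31217623-31217872, plus strand: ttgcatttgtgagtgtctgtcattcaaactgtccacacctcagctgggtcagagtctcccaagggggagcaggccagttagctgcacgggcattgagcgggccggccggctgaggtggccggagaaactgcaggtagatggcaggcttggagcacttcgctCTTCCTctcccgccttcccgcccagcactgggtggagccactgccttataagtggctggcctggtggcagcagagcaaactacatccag
Flt1, chr5:147726012-147726261, minus strand: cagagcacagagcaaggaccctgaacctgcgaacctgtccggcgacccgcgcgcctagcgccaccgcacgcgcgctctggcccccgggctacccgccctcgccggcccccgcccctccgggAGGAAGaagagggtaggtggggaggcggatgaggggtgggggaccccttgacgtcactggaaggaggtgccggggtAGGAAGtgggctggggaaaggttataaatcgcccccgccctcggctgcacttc
Esm1, chr13:113209409-113209658, plus strand: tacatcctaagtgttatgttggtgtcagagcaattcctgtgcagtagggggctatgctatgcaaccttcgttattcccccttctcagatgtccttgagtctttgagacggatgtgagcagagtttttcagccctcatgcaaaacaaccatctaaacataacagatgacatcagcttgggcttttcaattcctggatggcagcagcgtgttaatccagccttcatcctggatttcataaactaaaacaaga
The window of Sema3g held 1 match, on the other strand, that of Flt1 held 2, and that of Esm1 held 0. Such a match was common, since 42.7% of 18109 promoters of all genes held one, 46.4% of the promoters of genes above background on all 4 BEC arrays, 44.2% of 317 promoters of genes called higher in BEC and 34.7% of 242 promoters of genes called lower. At least 1 promoter held a match in 6 of 11 called arterial genes with a window, 5 of 9 capillary and 3 of 4 venous ones. The share was 47.3% of all 14452 genes with a window and 52.1% of the 6644 above background on all 4 BEC arrays. The SOX core ACAAT, which SOX17 and SOX18 bind, was in 21.3% of all promoters and 19.9% of those of genes called higher. In promoters of genes above background on all 4 BEC arrays it was in 18.2%. For the GATA core AGATAA these shares were 7.40%, 5.05% and 5.44%. Both cores were searched on both strands and neither was in the 3 windows shown. A match is a description of letters in a window and says nothing of binding.

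Among 72 measured surface genes, 70 were above background on all 4 BEC arrays and 55 had a mean percentile of 90 or more; Tfrc and Ly6g6c were the exceptions. The 8 brightest were Cd36, Cd81, Ly6e, Cdh5, Adgrf5, Cd47, Plvap and Il6st. The tetraspanin gene Cd81 was at 13.08, 12.58, 12.67 and 12.62 (4.14-fold higher, limma, adjusted p = 3.27e-04) and the adhesion receptor gene Adgrf5 at 12.53, 12.23, 12.03 and 12.69 (2.36-fold, 0.0228). Adgrf5 lost its call without BEC1, BEC2, BEC4, LEC3 or LEC4 (adjusted p up to 0.0861). Ly6e, a GPI-anchored protein, was at 12.39, 12.35, 12.68 and 12.69 and just missed the threshold (difference 1.02 ± 0.27, 0.0525), and it passed with the mouse as a block (0.0262). Cd47, the signal that restrains phagocytes, was at 12.15, 12.19, 12.14 and 12.60, highest on BEC4, and Il6st, the shared receptor chain of the interleukin 6 family, at 12.34, 12.01, 11.93 and 12.18. Neither was called (adjusted p = 0.271 and 0.861).

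Of the 72 surface genes 29 were called higher and 4 lower, beside 2.31% and 1.76% of all genes tested. The median difference of the 72 was 1.28, and 41 lay above every LEC value without overlap, as did 5.19% of all genes tested. Beyond the brightest, the genes named here were chosen after their values were seen. Entpd1, the ectonucleotidase CD39, which clears extracellular ATP, had the highest bound of the list, at 11.84, 11.23, 12.43 and 11.65, highest on BEC3 and lowest on BEC2 (at least 177-fold, adjusted p = 1.38e-05). The junction molecule gene Jam2 was at 9.60, 10.13, 9.40 and 10.10 (at least 46.8-fold, 5.83e-05), the lipoprotein receptor gene Scarb1 at 9.54, 10.30, 9.78 and 10.34 (at least 32.8-fold, 9.73e-05), and Cd93, a C-type lectin receptor, at 12.28, 11.89, 11.66 and 11.33 (9.48-fold, 1.58e-04). Integrin alpha 6 (Itga6), the laminin receptor chain, was 4.88-fold higher (0.00296), the collagen receptor chain Itga1 6.69-fold (0.0288), and the angiotensin-converting enzyme gene Ace at least 8.86-fold (0.0122). Adgrl2 was uneven, with values of 9.49, 12.16, 8.48 and 9.84 and BEC2 far above the rest (at least 23.9-fold, 0.00347, and at least 14.5-fold without BEC2). Of the 29 calls 23 held in all 8 fits that left out 1 array, and Lifr, Cdh5, Adgrf5, Mcam, Itga1 and Jam3 did not; the fold of Itga1 was 4.23 without LEC4. The 4 lower genes were Flt4, Nrp2, Ackr3 and Cd9 (3.74-fold higher in LEC, 0.0359), and Nrp2 and Cd9 lost the call without any 1 of 6 arrays (up to 0.114 and 0.126). BEC1 and BEC2 alone gave 19 higher surface genes; the 10 lost were Plvap, Ramp3, Itga6 (0.0939), Ace (0.192) and the 6 that also lost the call with single arrays left out.

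Of 81 measured genes of secreted products 60 were above background on all 4 BEC arrays and 7 on none, and 28 had a mean percentile of 90 or more. The 8 brightest were Col4a1, Igfbp7, Sparc, Cxcl12, Igfbp4, Col4a2, Timp3 and Adm. Cxcl12, the ligand of CXCR4, was at 13.56, 12.93, 12.19 and 13.02, highest on BEC1 and lowest on BEC3, and 16-fold higher than in LEC (limma, adjusted p = 1.44e-04). The metalloproteinase inhibitor gene Timp3 was at 12.21, 12.31, 11.98 and 12.46 and slightly lower than in LEC (1.79-fold higher there, 0.0436), a call that was lost without any 1 array but LEC3 (up to 0.125), with equal medians (0.325), with quantile normalization (0.172), with equal hybridisation controls (0.628), without the filter (0.0716) and without the trend (0.486). Igfbp4 and adrenomedullin (Adm), a vasodilator peptide, were at 12.73, 12.89, 12.11 and 12.46 and 12.53, 12.24, 11.92 and 12.12, and neither was called (0.945 and 0.200). The other Adm probe set was far dimmer, with a mean of 5.18 in BEC, and above background on 3 BEC arrays.

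Of 75 secreted genes tested 19 were called higher and 10 lower, beside 2.31% and 1.76% of all genes tested, with a median difference of 0.38. Col15a1, a collagen of vascular basement membranes, was higher by 26.8-fold (0.00154, and 40.2-fold without BEC4), yet spread widely at 13.02, 12.29, 11.14 and 9.81, 9.26-fold between BEC1 and BEC4. Other higher members were the laminin chain gene Lama5 (11.8-fold, 0.00306), the activin subunit gene Inhbb (at least 20.2-fold, 2.24e-04), thrombospondin 1 (Thbs1, 6.37-fold, 0.0306), the protease gene Adamts9 (at least 10.8-fold, 0.0109) and the growth factor gene Pdgfd (4.40-fold, 0.0397). Thbs1, Pdgfd, Timp4, Apln and the guidance cue gene Slit3 each lost the call without some single array (up to 0.121, 0.143, 0.0547, 0.0863 and 0.0784), and Pdgfd also with the mouse as a block (0.0849). The heparan sulphate proteoglycan gene Hspg2, at 12.72, 12.16, 11.59 and 11.12 and not called with all arrays unpaired (0.0735), was called with that block (0.0377), and so was Tgfb2, as lower in BEC (0.0387, against 0.134).

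The 10 secreted genes called lower in BEC were Mmrn1, Reln, Igfbp5, Lcn2, Tgfb3, Sema3d, Col18a1, Timp2, Fstl1 and Timp3. Of these the collagen gene Col18a1 was at 6.30, 4.80, 4.90 and 6.97 (26.9-fold higher in LEC, adjusted p = 3.00e-04) and the metalloproteinase inhibitor gene Timp2 at 8.50, 8.69, 8.95 and 9.98 (11.4-fold, 9.45e-05). Sema3d, Lcn2 and Tgfb3 were below background on every BEC array. The 7 secreted genes below background on all 4 arrays also included the inflammatory genes Ccl2 and Il6 (0.87 to 2.96 and -1.52 to 3.18), and the interferon-induced chemokine gene Cxcl9 was above background on all 4 (5.42, 6.05, 7.09 and 5.93). Leaving out BEC3 and BEC4 gave 11 higher secreted genes, without Edn1, Lama5 (0.0590), Adamts9 (0.202), Timp4, Pdgfd, Apln, Thbs1 and Slit3.

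Of 66 measured transport genes 48 were above background on all 4 BEC arrays, and the 8 brightest were Fabp4, Cd36, Car4, Fabp5, Ehd2, Cav1, Plvap and Cavin2. The list shares 9 genes with the capillary list. Caveolin 1 (Cav1), the coat protein of caveolae, was at 12.59, 12.36, 11.95 and 12.29, the caveolar neck ATPase gene Ehd2 at 12.93, 11.97, 12.23 and 12.27 and the coat protein gene Cavin2 at 12.35, 11.86, 12.19 and 12.13. These 3 varied little between mice and none was called against LEC (limma, adjusted p = 0.657, 0.515 and 0.0620); Cavin2 was called lower in BEC without LEC1 (0.0438) and with the stricter filter (0.0454). Fabp4, Cd36 and Plvap were thus called against LEC, whereas these 3 caveolar genes were bright in BEC and missed the threshold.

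Of 61 transport genes tested, 14 were called higher and 2 lower, beside 2.31% and 1.76% of all genes tested, with a median difference of 0.63. The taurine transporter gene Slc6a6 was at 12.24, 11.38, 11.24 and 9.74, highest on BEC1 and lowest on BEC4 (15.5-fold, 0.00230), and the prostaglandin transporter gene Slco2a1 at 11.11, 10.93, 10.26 and 10.10 (14.8-fold, 6.40e-04). The zinc exporter gene Slc30a1 was even at 12.24, 11.65, 11.58 and 12.01 (9.63-fold, 0.00137), as was the endosomal ATPase gene Ehd4 at 11.78, 11.43, 10.87 and 11.71 (9.33-fold, 2.23e-04). Both P-glycoprotein genes were called, Abcb1a at 8.81, 10.13, 9.88 and 10.52 (11.2-fold, 0.00355) and the dim Abcb1b at 5.99, 7.01, 3.62 and 5.52 (at least 2.42-fold, 0.0255; at least 3.77-fold without BEC3). Abcb1b, the glutamate transporter gene Slc1a1 (at least 6.06-fold, 0.0288; at least 3.73-fold without BEC2) and Slc43a3 (3.05-fold, 0.0479) lost the call without single arrays (up to 0.122, 0.121 and 0.162), Slc43a3 without any 1 of the 8 and with the mouse as a block (0.0613). The lower ones were the lipoprotein receptor gene Vldlr (at least 35.1-fold higher in LEC, 0.00127) and the potassium channel gene Kcnn3 (at least 26.8-fold, 0.00839; at least 42.7-fold without BEC1 and 17.9-fold without LEC1). With the block, Pacsin3 was called lower too (0.0494, against 0.0608). Among transporters known from the brain barrier, the lysolipid transporter gene Mfsd2a was at 4.96, 1.08, 1.54 and 3.71 and the amino acid transporter gene Slc7a5 was at 1.46, 0.92, 5.40 and 2.37, above background on 2 arrays and 1. The glucose transporter gene Slc2a1 was above it on all 4, at 10.22, 8.83, 10.86 and 9.02. With only BEC1 and BEC2, 8 transport genes were called higher, without Abcb1a (0.0988), Abcb1b, Car4, Plvap, Slc1a1 and Slc43a3.

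Immediate early and stress genes, which rise when tissue is taken apart, were mostly bright in BEC. Of 25 such genes 22 were above background on all 4 BEC arrays, with a median percentile of 90.2. On all 4 LEC arrays 21 were, with a median percentile of 85.3, and the median difference was 0.24. Jun was at 12.12, 11.81, 11.20 and 12.11 in BEC and 10.60 ± 0.94 in LEC, Fos at 10.07, 9.10, 8.95 and 9.77 and 7.49 ± 0.72, and Klf2, a shear-responsive factor, at 9.06, 8.43, 9.37 and 9.65 and 7.30 ± 0.29. None of the 3 was called (limma, adjusted p = 0.171, 0.0516 and 0.0560, and 0.0424 for Jun with the mouse as a block). Of 24 tested 1 was called, beside 4.07% of all genes tested. It was Zfp36, an mRNA decay factor (5.06-fold higher in BEC, limma, 0.00121). The unadjusted limma p was under 0.05 for 8 members higher in BEC and 2 lower. Cell cycle genes were mostly dim. Of 19 measured, 5 were above background on all 4 BEC arrays, among them Pcna at 9.68, 10.50, 9.55 and 9.92 and Ccna2 at 5.73, 5.03, 4.74 and 5.15, and none of 13 tested was called in limma (1 had an unadjusted p under 0.05, median difference -0.42).

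Genes of other cell types differed between lists and arrays. Median percentiles in BEC were 64.2 for epithelial and 52.8 for enteroendocrine genes, beside 47.5 for all genes. On BEC3 the epithelial median was 92.0. The lymphatic, pericyte, fibroblast, leukocyte, glia and blood cell lists were dimmer, with medians of 29.8 to 42.2. Of 19 lymphatic genes 5 were above background on all 4 BEC arrays. Against LEC 18 were called lower, beside 1.76% of all genes tested. The summed linear signal of the 19 was 3853 to 5553 on the BEC and 61411 to 102233 on the LEC arrays. The 3 brightest in BEC were the VEGF-C receptor gene Flt4 at 11.39, 11.42, 10.91 and 10.73 (5.11-fold higher in LEC, limma, adjusted p = 9.47e-05), its co-receptor Nrp2 at 10.08, 10.89, 10.11 and 11.48 (3.19-fold, 0.0394) and the integrin chain gene Itga9 at 8.29, 8.72, 7.33 and 7.21 (8.39-fold, 0.00180). The defining lymphatic factor Prox1 was at 3.32, 3.89, 3.22 and 4.57, above background on 2 BEC arrays. Nrp2 lost the call without BEC1, BEC2, BEC3, LEC1, LEC2 or LEC4 (up to 0.114).

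Of 15 leukocyte genes 0 were above background on all 4 BEC arrays, and their summed signal was 176 to 347 in BEC and 217 to 540 in LEC. For 12 fibroblast genes these ranges were 243 to 397 and 424 to 8194, with Col1a1 (5.96 ± 0.93), Col1a2 (5.61 ± 0.82) and Pdgfra (4.41 ± 0.66) above background on all 4 BEC arrays. For 15 pericyte and smooth muscle genes they were 1473 to 2436 and 1194 to 3046. The pericyte gene Rgs5 was at 9.04, 10.00, 10.04 and 9.30 and was called higher than in LEC (at least 27.9-fold, adjusted p = 0.00849, and 0.106 from BEC1 and BEC2 alone), while the defining receptor gene Pdgfrb was at 2.99, 3.67, 2.54 and 3.80, above background on 2 arrays, and Kcnj8 and Mylk were not called. The part of pericytes in the Rgs5 difference was not tested. The alpha globin gene Hba-a2 was at 11.12, 10.39, 9.62 and 9.97 in BEC and 10.28 ± 0.97 in LEC. For 11 glia and neuron genes the summed signal was 463 to 1086 in BEC and 426 to 794 in LEC. Stmn2 (7.01 ± 0.48), which is also on the arterial list, and Sox10 (5.21 ± 1.06) were above background on all 4 BEC arrays. Neither was called (limma, adjusted p = 0.341 and 0.858).

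Epithelial genes were mostly high on BEC3 and BEC4. Epcam, the epithelial adhesion molecule, was at 4.99, 6.48, 11.85 and 11.13, the keratin genes Krt8 and Krt19 at 7.15, 6.69, 11.53 and 9.83 and 5.81, 7.09, 11.84 and 10.10, and the colonocyte carbonic anhydrase gene Car1 at 5.53, 6.05, 12.54 and 3.62. BEC3 was thus 117-fold above BEC1 for Epcam, and Car1 was high on BEC3 alone. Cldn3, with Krt8 and Krt19 among the 3 brightest above background on all 4 arrays, differed from these. It was at 8.64, 6.29, 8.84 and 7.69, nearly as high on BEC1 as on BEC3 and lower on BEC4. In the list as a whole 12 of 14 genes above background on 3 or more BEC arrays were highest on BEC3. None of 15 tested epithelial genes was called in limma, and 1 had an unadjusted p under 0.05; the median SD was 2.15 among the 9 above background on all 4 arrays. Of 13 enteroendocrine genes 9 were above background on 3 or more BEC arrays, and these 9 were all highest on BEC4. Chromogranin B (Chgb), a protein of secretory granules, was at 5.43, 10.54, 12.88 and 13.67, 303-fold apart between BEC1 and BEC4, and below background on all 4 LEC arrays. It was the 1 gene of its list that was called (at least 82.8-fold higher in BEC, adjusted p = 0.00222; at least 275-fold without BEC1, 49.3-fold without BEC3 and 41.0-fold without BEC4; adjusted p = 0.0641 from BEC1 and BEC2 alone). Chromogranin A (Chga) was at 4.84, 7.14, 11.21 and 12.34 and the serotonin synthesis enzyme gene Tph1 at 2.66, 6.15, 8.92 and 10.21. Chga was called only without BEC1 (0.0146, against 0.0810). Cpe, also among the 3 brightest of the list, was at 6.76, 8.42, 9.30 and 10.41 in BEC. Its LEC level was higher, at 9.67 ± 1.14, and it was not called (limma, adjusted p = 0.638). The part of epithelial and enteroendocrine RNA in other genes' BEC values was not tested.

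**Figure D4:**
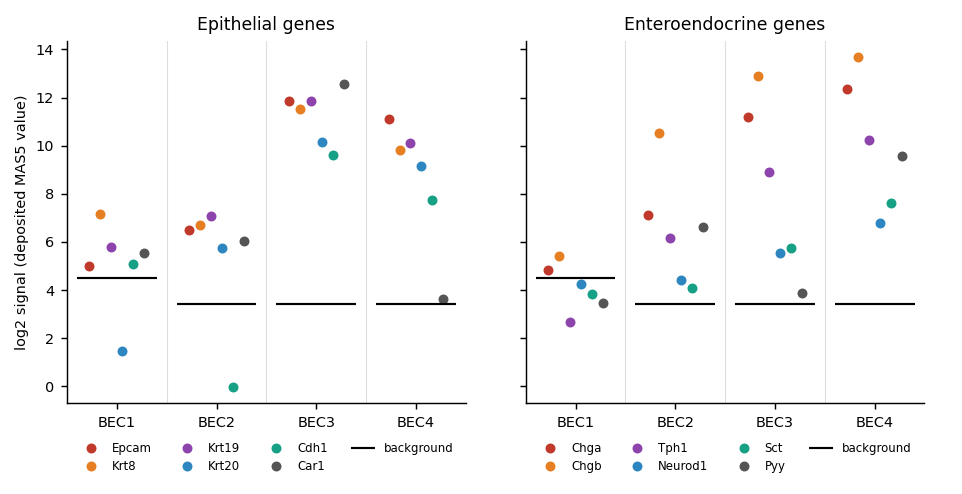
Log2 signal of 6 epithelial genes (left) and 6 enteroendocrine genes (right) on each BEC array, 1 point per gene and array, with the array's background level as a black bar. Epithelial genes such as Epcam (4.99, 6.48, 11.85 and 11.13) are highest on BEC3 and enteroendocrine genes such as Chgb (5.43, 10.54, 12.88 and 13.67) on BEC4, and most are near background on BEC1.

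Replicate spread was small for bright genes. Over the 8181 genes above background on all 4 BEC arrays, the median SD was 0.71, with 0.32 and 1.34 at the 10th and 90th percentiles; 696 genes (8.51%) had an SD under 0.3 and 107 (1.31%) one above 2. By brightness the median SD was 1.44 for genes of the lower 50 percentiles, where most values are at background, and 0.39 for those of the top 5. The lists were near the level of all such genes or below it, at 0.52 for arterial, 0.55 for capillary, 0.60 for venous, 0.40 for surface, 0.62 for secreted and 0.66 for transport genes. These lists are bright, and genes at percentiles 75 to 90, 90 to 95 and 95 to 100 had median SDs of 0.70, 0.56 and 0.39. The capillary list, with a median percentile of 97.1, was thus above the level of genes as bright. Nrp1 (0.13), Vwf (0.17) and the endothelial secreted factor gene Egfl7 (0.06) were among the steadiest, and Lpl (1.41), Adgrl2 (1.56) and Col15a1 (1.40) among the most variable. On the 7085 genes above background on all 4 LEC arrays, the median SD was 0.75 in BEC and 0.77 in LEC.

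Among genes above background on 3 or more BEC arrays, the 10 that varied most were Cftr, Snap25, Saa1, Incenp, Reg4, Mtcp1, Xist, Pfn2, Ankrd24 and Cdh1. Xist, the RNA that coats the inactive X chromosome, was at 11.53, 10.48, 10.95 and 1.97, low on the array of the male mouse. Cftr, the chloride channel of crypt epithelium, was at -1.76, 4.86, 9.87 and 9.00, Reg4, a secreted lectin of enteroendocrine and goblet cells, at -0.11, 8.05, 8.73 and 10.48, and Snap25, a protein of exocytosis in neurons and endocrine cells, at -1.46, 7.86, 8.05 and 9.66. These 3 and E-cadherin (Cdh1, 5.07, -0.02, 9.61 and 7.74) were higher on BEC3 and BEC4 than on BEC1, as the epithelial and enteroendocrine lists were. Saa1, an acute phase protein that gut epithelium makes, was at 5.37, 5.16, 12.75 and 1.08, high on BEC3 alone. None of the 10 was called against LEC with all arrays, and Reg4 was called without BEC1 (limma, adjusted p = 0.0392).

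**Figure D5:**
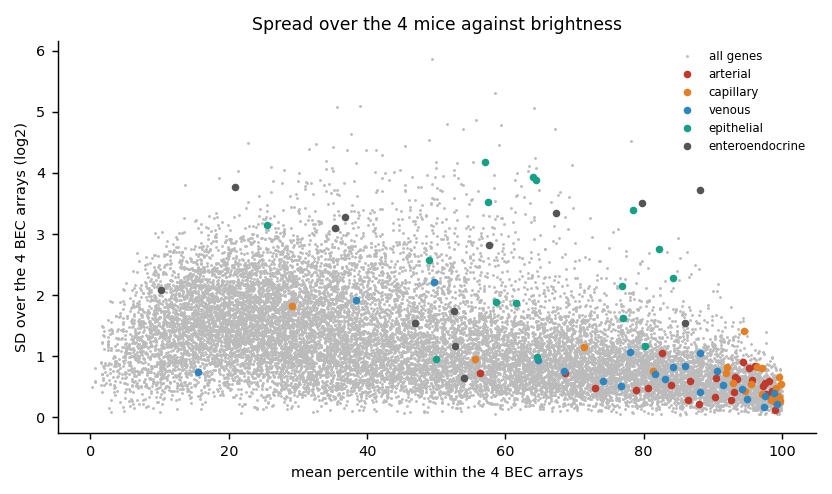
SD over the 4 BEC arrays against mean percentile, for all 18193 genes (grey) and for members of 5 lists (colours). Arterial, capillary and venous genes lie mostly at the bright, even end to the lower right, whereas several epithelial and enteroendocrine genes have an SD above 2 (Chgb 3.71, Epcam 3.39).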

How the data were processed

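The authors deposited 1 log2 signal per probe set and array, made with MAS5 per the submitters' processing notes; the sources used here name no version. Linear signals had a 2% trimmed mean of 100 on each array, which is where the scale was taken from. Of 45101 probe sets, 64 were controls; 34945 of the rest had 1 gene in the 2016 platform annotation, 932 several and 9160 none. A gene took its probe set with the highest mean over 8 arrays (18193 genes). Background was the 95th percentile of 27 Bacillus subtilis control probe sets per array. Signal over background and the number of arrays limit the precision.

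BEC and LEC were compared with limma 3.58.1 (R 4.3.3, eBayes with an intensity trend) on the deposited log2 values of 13259 genes above the 40th percentile of at least 4 of 8 arrays, two-sided, with Benjamini-Hochberg adjustment over those genes; called means an adjusted p under 0.05. Descriptions were computed with Python 3.11.15 and pandas 2.3.3. The fitting script was tested on simulated data. Pairs of arrays share a mouse per the series design, and the fit with the mouse as a block was an alternative. Deviations of same-mouse arrays from their group means correlated at 0.142, 0.0776, 0.181 and 0.0510. For BEC and LEC arrays of different mice these correlations ran from -0.148 to 0.0747.

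The members and lists were chosen with earlier results of these data known. By rule the text names the 6 markers, the 8 brightest surface, secreted and transport genes, the 6 brightest and the 6 most clearly called arterial, capillary and venous genes, the 12 brightest and 10 most variable of all genes, and the 3 brightest members of each list of another cell type that were above background on all 4 BEC arrays. Other members were named after their values were seen. Of 515 list entries 495 were measured, and the rest are not analysed here. Promoters came from RefSeq tables for GRCm38.p6, without those on chr18, and 14452 of 18193 genes had one. Alternatives were another scaling, filter, background level, variance model or probe set rule, the block, and each array left out.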

Additional observations from a re-analysis of the deposited data

Results flagged for a closer look

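Of 89 genes and array measures examined for 1 array far from the other 3, 13 stood out. Chance gives about 1 in 20 for independent groups of values; these 89 share the same 4 arrays and include the 10 most variable genes, so that rate does not apply to them as a whole. The value in each case is the gap to the nearest array as a share of the range of the 4 BEC arrays, and each exceeded Dixon's 95% critical value for 4 samples.

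BEC1 was the highest array for Plvap (0.922, 12.72 against 11.99 to 12.04), Col4a1 (0.893), Sparc (0.839) and Hnrnpab (0.848), and the lowest for Snap25 (0.838). It also had the highest background level (0.994, 4.52 against 3.43) and the highest mean of the 18 hybridisation control probe sets (0.898, 13.67 against 12.64 to 12.75). BEC2 was the lowest array for Cytl1 (0.898), Rps29 (0.885) and the pericyte channel gene Kcnj8 (0.885, 8.09, 5.53, 7.85 and 8.15 on BEC1 to BEC4). BEC3 was the highest for Madcam1 (0.8292). BEC4 was the highest for Cd47 (0.887) and the lowest for Xist (0.890), and it is the array of the male mouse.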

How the results depend on the processing

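Of the 540 genes called, 1, which is not a named gene, had the opposite direction under 1 of 18 alternatives (the probe set with the highest BEC mean), and some list deviations changed sign. The lower count was 123 with equal hybridisation controls, against 234; leaving out each array in turn gave 180 to 329 genes higher in BEC, against 306, with the lowest count without BEC2, and a median replicate SD of 0.615 to 0.692, against 0.709. BEC1 and BEC2 alone gave 102 higher and 143 lower genes and 8 arterial, 4 venous, 19 surface, 11 secreted and 8 transport genes higher, with 2 BEC arrays fewer. With equal array medians the deviations became 0.065 (arterial, BEC1) and 0.18 (BEC3), -0.075, 0.086 and 0.26 (capillary, BEC1, BEC3 and BEC4), -0.45, 0.37 and 0.44 (venous, same arrays) and -0.25, -0.0609, 0.24 and 0.24 (all genes, BEC1 to BEC4); with quantile normalization those of all genes were 0.034 on BEC2 and 0.031 on BEC3. The cause of these shifts was not tested. With the mouse as a replicate block 298 genes were higher and 236 lower, 267 and 207 of them among the calls without it, and named calls that it changed stand beside their results. Without the intensity trend 213 were higher and 186 lower. Over named genes and alternatives, 1416 comparisons stayed on their side of the threshold, 57 lost it and 17 gained it; of 36 called genes 22 were called in all 18 alternatives. List members that lost the call with equal array medians were Ackr3, Cd9 (adjusted p = 0.170), Fbln2 (0.0614), Fstl1 (0.0542), Nrp2 (0.125), Slc43a3 (0.0555) and Timp3. With equal hybridisation controls Cdh5 (0.0851), Flrt2 (0.0661), Pdgfd (0.0701), the scavenger receptor gene Stab1 (0.0536), Trp53i11 (0.0507) and Nr2f2 did so too. Without the trend the named genes Car4 (0.0597), Cd81 (0.0507), Col4a2 (0.0928), Cdh5 (0.319), Adgrf5 (0.297), Lifr (0.0893), Nrp2 (0.238), Timp3 and Ackr3 did. Further list members lost the call without the trend. The genes called higher were then 13 arterial, 10 capillary, 7 venous, 21 surface, 14 secreted and 12 transport genes, against 14, 13, 8, 29, 19 and 14. With the highest control probe set as background 7370 genes were above it on all 4 BEC arrays and with the array median 7695, against 8181. Genes below background have no order, and 4 arrays a group limit the precision.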
